A study of Mus musculus with 6 samples.

Results

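The TAM receptors, their bridging ligands and the ELMO-DOCK engulfment genes were described in BV2 cells, which are immortalized mouse microglia kept as 1 cell line. The members were the 10 genes of a fixed list of symbols, Axl, Mertk, Tyro3, Gas6, Pros1, Mfge8, Itgb5, Elmo1, Dock1 and Dock2, and all 10 were found among the 46095 symbols of the count table. RNA-seq was done on untreated cells (CON group, 3 libraries) and on cells incubated with recombinant sTREM-1 protein, the soluble form of the receptor TREM-1, at 1 μg/mL for 6 h (sTREM-1 group, 3 libraries). Both groups were plated the day before in six-well format. The labels name no culture or library batch, so that a difference in handling and the effect of sTREM-1 cannot be told apart. The labels and the methods of the study differ in the number given for each group, and neither says whether the 3 libraries analysed here came from separate cultures. The p-values therefore measure the spread between these libraries, which may be technical.

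Efferocytosis is the uptake of dying cells by phagocytes. Dying cells expose the lipid phosphatidylserine, which is bound by bridging proteins that connect it to a receptor on the phagocyte. Gas6 and protein S, the product of Pros1, bridge to the TAM receptor tyrosine kinases Tyro3, Axl and Mertk. Mfge8 bridges to αv integrins, one of which contains the integrin β5 chain encoded by Itgb5. Inside the phagocyte, ELMO proteins join DOCK exchange factors to activate the GTPase Rac, which drives the membrane around the target. Microglia are the resident phagocytes of the brain and remove dying neurons and synaptic material, and Mertk and Mfge8 are known in this role.

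The stretch upstream of the start site is shown for the 3 members that passed the test described below and for Dock2, the close relative of Dock1 that did not. Each is the 250 bases before the start of the RefSeq gene on the gene's own strand, in the build GRCm38.p6. Capitals mark exact matches on either strand to the GC box GGGCGG, the purine box GAGGAA or the TATA box TATAAA. The Mfge8 stretch lies at chr7:79149061-79149310 on the minus strand, that of Elmo1 at chr13:20090257-20090506 on the plus strand, that of Dock1 at chr7:134670437-134670686 on the plus strand and that of Dock2 at chr11:34783906-34784155 on the minus strand.
Mfge8: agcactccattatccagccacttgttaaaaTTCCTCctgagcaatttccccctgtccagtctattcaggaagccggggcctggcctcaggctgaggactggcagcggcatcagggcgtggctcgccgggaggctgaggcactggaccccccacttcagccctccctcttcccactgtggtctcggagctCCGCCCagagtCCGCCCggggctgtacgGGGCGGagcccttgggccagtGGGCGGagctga
Elmo1: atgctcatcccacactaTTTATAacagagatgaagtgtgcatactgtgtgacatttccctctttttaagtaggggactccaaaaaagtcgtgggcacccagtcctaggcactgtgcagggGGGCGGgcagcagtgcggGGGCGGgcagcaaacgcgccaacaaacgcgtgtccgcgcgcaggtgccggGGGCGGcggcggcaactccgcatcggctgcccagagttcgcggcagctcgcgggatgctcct
Dock1: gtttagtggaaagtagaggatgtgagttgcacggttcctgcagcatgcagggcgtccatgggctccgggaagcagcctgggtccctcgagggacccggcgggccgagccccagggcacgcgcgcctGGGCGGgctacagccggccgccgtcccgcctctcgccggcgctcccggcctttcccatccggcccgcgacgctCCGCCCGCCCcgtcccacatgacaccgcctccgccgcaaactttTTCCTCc
Dock2: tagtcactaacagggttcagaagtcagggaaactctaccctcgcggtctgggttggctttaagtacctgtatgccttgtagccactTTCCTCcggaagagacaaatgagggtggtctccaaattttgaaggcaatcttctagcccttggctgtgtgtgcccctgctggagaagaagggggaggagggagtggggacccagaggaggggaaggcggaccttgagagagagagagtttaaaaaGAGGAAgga

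GC boxes numbered 4 in the Mfge8 stretch, 3 in the Elmo1 stretch, 3 in the Dock1 stretch, where 2 of them overlap, and 0 in the Dock2 stretch. In the members not shown, the stretch held 1 GC box for Axl, 3 each for Mertk, Tyro3 and Itgb5, 4 for Gas6 and 5 for Pros1. Members that passed the test and members that did not thus both had GC boxes. The Dock2 stretch held 2 purine boxes, while Mfge8 and Dock1 had 1 each and Elmo1 had 0. Of 32851 RefSeq stretches of the same length, 32.7% held a GC box, 23.3% a purine box and 12.4% a TATA box. The Elmo1 stretch held 1 TATA box, 233 bases before the RefSeq start. That stretch ends at 20090506, while Elmo1 starts at 20090596 in the GENCODE M21 annotation. The Dock2 stretch, on the minus strand, begins at 34783906, while Dock2 ends at 34783892 in that annotation. Positions in these stretches thus depend on the start used. The nuclear receptor half-site AGGTCA, the AP-1 site TGANTCA and the E-box CACGTG, found in 14.0%, 6.75% and 6.02% of all stretches, had no match in the first listed stretch of any of the 10 members. RefSeq lists a second start for Elmo1, and its stretch held none of the 6 motifs. A match of letters describes the window and is no evidence that a factor binds there.

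The libraries held between 40070633 and 45877107 counts, and 14120 genes passed the filter on low counts. Pairs of libraries within a group gave a chi-square per gene of 3.45 to 4.99, above sampling noise, while pairs across groups gave 20.3 to 22.3, and all 6 were kept as replicates. Of 15 microglia and macrophage markers, 11 had a mean above 1 CPM (counts scaled to a common library size of 1000000 after TMM normalization), among them Csf1r, Itgam, Cd68, Tyrobp and Trem2. The summed level of this list ran from 3060 to 3090 CPM in the CON group and from 3370 to 3430 CPM in the sTREM-1 group. Csf1r had the widest absolute range in CPM of the list over the 6 libraries, from 517 to 770 CPM, so the sum does not describe each marker. Above 10 CPM were the means of 9 of the 15. Aif1, which encodes IBA-1, and Sall1 were at 0 counts in all 6 libraries. P2ry12, Tmem119 and Fcrls stayed below 2 CPM, and Cx3cr1 ran from 0.806 to 2.18 CPM. The annotation used for counting is not given in the sources used here, and whether a count at or near 0, as for Aif1, reflects the RNA or the counting was not tested. Of the 6 neuron and 5 astrocyte markers none had a mean above 1 CPM, and Rbfox3 and Aqp4 were at 0. The 5 oligodendrocyte markers summed to between 7.31 and 7.94 CPM in the CON group and between 5.63 and 6.70 CPM in the sTREM-1 group, and their part in the results below was not tested. The 4 endothelial markers summed to at most 2.61 CPM in any library, the 4 fibroblast markers to at most 0.512 CPM and the 4 lymphocyte markers to at most 0.0235 CPM.

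To compare the members with each other, CPM was divided by the length of the longest transcript in GENCODE M21 and given per kilobase (kb). In the CON group Mfge8 was the most abundant, at 372 ± 1.45 CPM per kb (SD, n = 3), a level at or above that of 99.2% of tested genes with a known length. Dock2 followed with 55.7 ± 0.963, then Elmo1 with 21.5 ± 0.262, Itgb5 with 9.95 ± 0.396 and Dock1 with 3.49 ± 0.150 CPM per kb (SD, n = 3 each). Pros1 and Mertk lay at 2.34 ± 0.290 and 1.79 ± 0.0409 CPM per kb (SD, n = 3 each). Axl was far lower, at 0.115 ± 0.0265 CPM per kb (SD, n = 3), and 2.17% of tested genes stood at or below it. Neighbours in this order did not overlap in either group, except Gas6 and Tyro3 in the CON group, which both lay at a few counts per library. With the median transcript length in place of the longest, Pros1 stood above Dock1, at 8.94 against 7.57 CPM per kb, and Tyro3 above Gas6, while the other places stayed as they were.

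**Figure D1:**
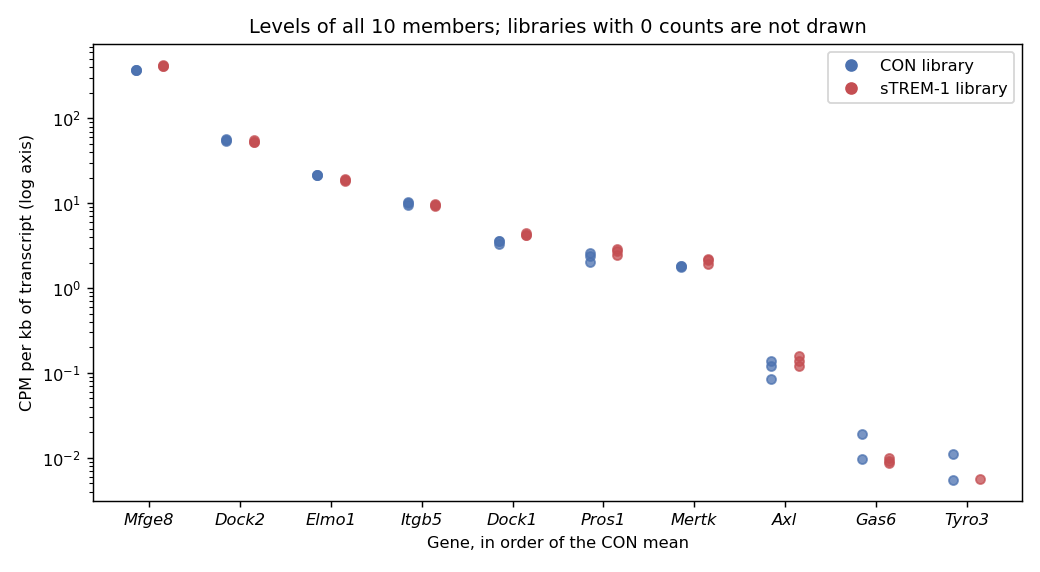
Level of each member in each library, in CPM per kb of the longest transcript on a log axis, with genes in the order of their CON mean. Mfge8 lies at the top, near 372 CPM per kb in the CON group, and Gas6 and Tyro3 lie at the bottom. A library with 0 counts of a gene is not drawn.

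Of the 8 members that could be tested for a response to sTREM-1, Mfge8 and Dock1 rose, Elmo1 fell, and Axl, Mertk, Pros1, Itgb5 and Dock2 did not pass the test. In RNA pooled from whole cultures, a change in the number of expressing cells and a change in RNA per cell cannot be told apart. Tyro3 and Gas6 had too few counts to be tested. A gene was called when its Benjamini-Hochberg adjusted p was under 0.05 in edgeR's quasi-likelihood test, fitted and adjusted over all 14120 genes. The called members were thus 3 of the 8 tested, where 30.5% of all tested genes were called, so the share of members is near the background. Of all tested genes 16.5% were called higher and 14.1% lower, against 2 and 1 of the 8 members. None of the members reached a 1.5-fold change with an adjusted p-value under 0.05, as 2.13% of all tested genes did, and 5 members had an unadjusted p-value under 0.05 in the same edgeR fit, as 38.7% of all tested genes did. The values of the groups did not overlap for 4 of the 8 members, Mertk, Mfge8, Elmo1 and Dock1, against 40.7% of all tested genes. The median log2 fold change of the 8 tested members was 0.18, beside a median of -0.002 and a median absolute value of 0.127 over all tested genes.

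**Figure D2:**
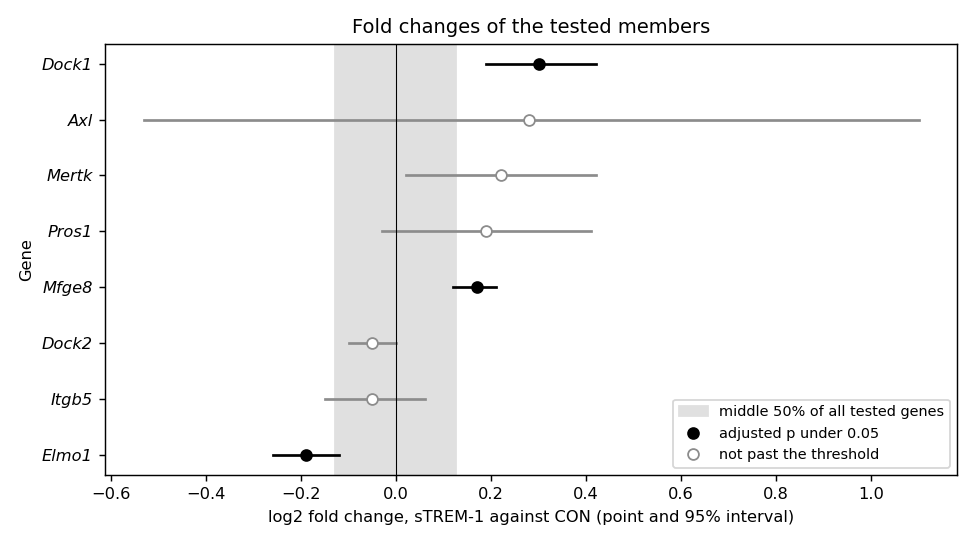
Log2 fold change of the 8 tested members, sTREM-1 against CON, with the 95% interval from edgeR as a line and the range between the quartiles of all tested genes, from -0.128 to 0.126, in grey. Dock1, Mfge8 and Elmo1 are filled because their adjusted p-value was under 0.05. The interval of Axl is the widest, from -0.53 to 1.10.

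Among the TAM receptors, Mertk carried most of the RNA. Mertk, which lies on chromosome 2 of GRCm38 from 128698956 to 128802894, was counted 319, 322 and 307 times in CON libraries and 430, 351 and 369 times in sTREM-1 libraries. After scaling these were 7.79, 7.85 and 7.52 CPM in the CON group and 9.41, 8.23 and 9.30 CPM in the sTREM-1 group. All 3 sTREM-1 libraries lay above all 3 CON libraries, with replicate 2 nearest to the controls. The log2 fold change was 0.22 (standard error 0.099, 95% interval 0.02 to 0.42), and with an adjusted p of 0.0993 from edgeR it did not pass the threshold. Over 13 refits with other scalings, filters, tests or libraries the edgeR or DESeq2 adjusted p of Mertk ran from 0.0570 to 0.269.

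Axl, a receptor that is usually induced by interferon in macrophages, lies on chromosome 7 from 25757273 to 25788705. The gene was counted 21, 15 and 24 times in CON libraries and 27, 22 and 27 times in sTREM-1 libraries, so the groups overlapped. Its mean was 0.489 ± 0.113 CPM in the CON group and 0.596 ± 0.0823 CPM in the sTREM-1 group (SD, n = 3 each). The log2 fold change was 0.28 (standard error 0.40, edgeR adjusted p = 0.654), and its interval in folds, 0.692 to 2.14, is wide, so that changes of either sign within it are not excluded. Without CON replicate 2 the log2 fold change of Axl was 0.11 and without CON replicate 3 it was 0.43.

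Tyro3, the third receptor, lies on chromosome 2 from 119797733 to 119818104 and is best known from neurons. The gene was counted 0, 1 and 2 times in CON libraries and 0, 0 and 1 times in sTREM-1 libraries. A count of 0 allows up to 3 counts, or 0.0737 CPM in CON replicate 1 and 0.0654 CPM in sTREM-1 replicate 1, by counting error alone. No library exceeded this floor of 3 counts, and no fold change is given.

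Per length, Mertk made up 93.8%, 95.2% and 92.2% of the RNA of the 3 receptors in the CON libraries and 94.0%, 94.1% and 92.9% in the sTREM-1 libraries. The mean was 93.7% in both groups, with an SD of 1.54 in the CON group and 0.663 in the sTREM-1 group (n = 3 each), and the difference of -0.0563 percentage points was smaller than the spread (exact permutation test, two-sided, p = 1.0). Axl made up 5.99% ± 1.41 in the CON group and 6.25% ± 0.523 after sTREM-1 (SD, n = 3 each; exact permutation test, two-sided, p = 0.9). The share of Tyro3 was 0.288% in the CON group and 0.0809% after sTREM-1, from 3 and 1 counts in all (exact permutation test, two-sided, p = 0.4). These shares depend on the transcript length used. With the median length of the annotated transcripts, which is short for Axl, Mertk made up 74.8% in the CON group and 74.5% after sTREM-1.

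Of the ligands of these receptors, Pros1 was counted at least 273 times in each library and Gas6 at most 2 times. Pros1, on chromosome 16 from 62854307 to 62929346, was counted 323, 352 and 273 times in CON libraries and 366, 402 and 360 times in sTREM-1 libraries. In CPM, the CON libraries stood at 7.89, 8.58 and 6.69 and the sTREM-1 libraries at 8.01, 9.43 and 9.07. The sTREM-1 replicate 1 library lay below the CON replicate 2 library, so the groups overlapped. The log2 fold change of Pros1 was 0.19 (standard error 0.11, 95% interval -0.03 to 0.41, edgeR adjusted p = 0.187). Without CON replicate 3 it was 0.10 and without CON replicate 2 it was 0.28.

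Gas6, on chromosome 8 from 13465374 to 13494490, was counted 0, 2 and 1 times in CON libraries and 1 time in each of the sTREM-1 libraries, 3 in each group in all. No library exceeded the floor of 3 counts. Its share of the summed Gas6 and Pros1 RNA per length was 0.401% ± 0.371 in the CON group and 0.344% ± 0.0201 in the sTREM-1 group (SD, n = 3 each; exact permutation test, two-sided, p = 0.7). Exons of Gas6 overlap those of Tmem255b on the opposite strand, which had 0 counts in all 6 libraries.

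Mfge8, the bridge between phosphatidylserine and αv integrins, was the most abundant member and rose. It lies on chromosome 7 from 79133768 to 79149060, just downstream of the stretch shown above. Counts were 35604, 35632 and 35243 in the CON group and 43896, 40912 and 39673 after sTREM-1. In CPM the CON libraries were close together at 869, 869 and 863, and the sTREM-1 libraries stood higher at 961, 960 and 1000. The groups did not overlap, and the gap between them was wider than the range within either group. The CON mean was 867 ± 3.39 CPM and the sTREM-1 mean 973 ± 22.9 CPM (SD, n = 3 each). On the log2 scale the change was 0.17 ± 0.021 (standard error), with an edgeR adjusted p of 2.46e-07. This is 1.12-fold, with a 95% interval of 1.09 to 1.16, and 39.8% of all tested genes had an absolute change at least as large. Corrected per library for GC content and length with a loess fit, a setting chosen once the values were known, the log2 fold change of Mfge8 was 0.14 (edgeR adjusted p = 1.15e-06).

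Itgb5, whose product pairs with αv integrin and can serve as a receptor for Mfge8, did not pass the test. Itgb5, on chromosome 16 from 33829665 to 33949338, had 32.7, 31.3 and 33.9 CPM in the CON libraries and 31.4, 30.8 and 32.5 CPM in the sTREM-1 libraries, which overlapped. The log2 fold change was -0.05 (standard error 0.052, edgeR adjusted p = 0.544), and the interval in folds ran from 0.899 to 1.04. Itgav, which encodes the αv chain and belongs to the wider lists below, stood at 134 ± 3.30 CPM in the CON group and 134 ± 5.47 CPM in the sTREM-1 group (SD, n = 3 each, edgeR adjusted p = 0.987).

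**Figure D3:**
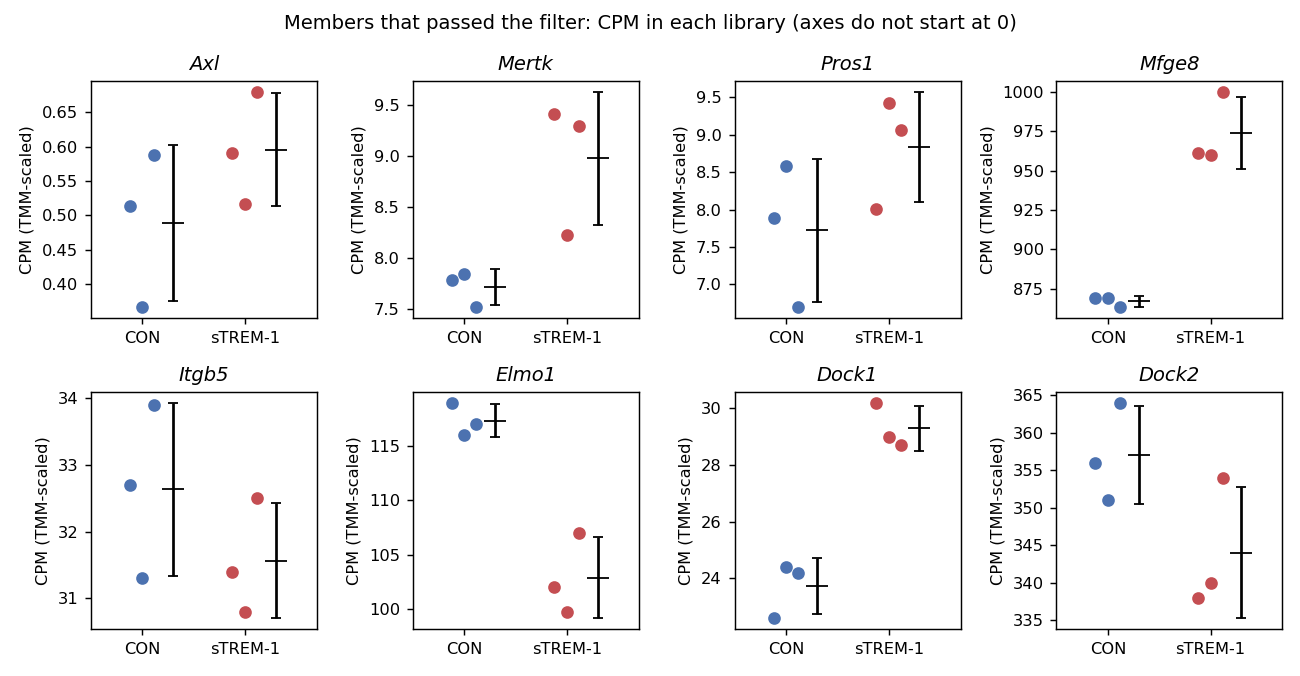
CPM of the 8 tested members in each library, with the group mean and SD in black beside the 3 points of each group. Each panel has its own axis, which does not start at 0. CON and sTREM-1 points are separated for Mertk, Mfge8, Elmo1 and Dock1 and overlap for Axl, Pros1, Itgb5 and Dock2.

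In the engulfment machinery the adaptor Elmo1 fell, while the exchange factor Dock1, also known as DOCK180, rose. Elmo1, on chromosome 13 from 20090596 to 20608353, was counted 4868, 4766 and 4764 times in CON libraries and 4662, 4250 and 4231 times in sTREM-1 libraries. In CPM these were 119, 116 and 117 in the CON group and 102, 99.7 and 107 in the sTREM-1 group. The highest sTREM-1 library stood below the lowest CON library. The mean was 117 ± 1.43 CPM in the CON group and 103 ± 3.53 CPM after sTREM-1 (SD, n = 3 each). On the log2 scale the change was -0.19 ± 0.033 (standard error), with an edgeR adjusted p of 3.18e-05, or 0.876-fold with a 95% interval of 0.837 to 0.918. An antisense gene on the opposite strand, Gm32036, overlaps exons of Elmo1 in the annotation. Gm32036 is not among the symbols of the count table, so its part in the counts of Elmo1 was not tested.

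Dock1, on chromosome 7 from 134670654 to 135173639, was counted 924, 1001 and 990 times in CON libraries and 1382, 1237 and 1137 times in sTREM-1 libraries. The RefSeq start differs from this GENCODE start. The stretch shown above ends at 134670686, so its last bases lie within the GENCODE gene. In CPM the CON libraries stood at 22.6, 24.4 and 24.2 and the sTREM-1 libraries at 30.2, 29.0 and 28.7. The groups were separated by more than the range within either of them. The CON mean was 23.7 ± 1.02 CPM and the sTREM-1 mean 29.3 ± 0.836 CPM (SD, n = 3 each). On the log2 scale the change was 0.30 ± 0.058 (standard error), with an edgeR adjusted p of 0.000129. At 1.24-fold, with a 95% interval of 1.14 to 1.34, this was the largest log2 fold change among the 8 tested members, and 19.5% of all tested genes changed at least as much.

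Dock2, the exchange factor known from blood cells and their relatives, had more RNA than Dock1, and its difference between groups did not pass the test. Dock2, on chromosome 11 from 34226815 to 34783892, had 356, 351 and 364 CPM in the CON libraries and 338, 340 and 354 CPM in the sTREM-1 libraries. The sTREM-1 replicate 3 library lay within the range of the CON group, and the other two lay below it. The log2 fold change was -0.05 (standard error 0.025, edgeR adjusted p = 0.107), with an interval in folds of 0.930 to 0.998. Without sTREM-1 replicate 3 it was -0.08 and passed the threshold (edgeR adjusted p = 0.0204), as it did with values corrected for GC content and length, at -0.06 (edgeR adjusted p = 0.0465). The antisense gene 4930403D09Rik, which overlaps exons of Dock2, had 0 counts in all 6 libraries.

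Compared per length, Dock1 made up 5.63%, 6.14% and 5.91% of the summed Dock1 and Dock2 RNA in the CON libraries and 7.78%, 7.44% and 7.07% in the sTREM-1 libraries. The share was higher in every sTREM-1 library than in every CON library. The mean was 5.89% ± 0.254 in the CON group and 7.43% ± 0.352 after sTREM-1 (SD, n = 3 each), a difference of 1.54 percentage points. The two-sided exact permutation test gave p = 0.1, below which 6 libraries in 2 groups of 3 cannot go. Leaving out single libraries gave differences of 1.36 to 1.72 points.

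The wider efferocytosis pathway was described with 10 further lists of 114 genes, all in the count table, of which 102 were tested. Of these 55, or 53.9%, were called, against the 30.5% of all tested genes, with 32 higher and 23 lower after sTREM-1. Their median level in the CON group was 76.5 CPM, beside 23.5 CPM over all tested genes, and the part of this in the count of calls was not tested. Their median log2 fold change was 0.03. With at least a 1.5-fold change 3 of the 102 were called higher and 1 lower, beside 2.13% of all tested genes in either direction. The 3 higher genes had low counts, with CON means from 0.619 to 1.59 CPM.

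**Figure D4:**
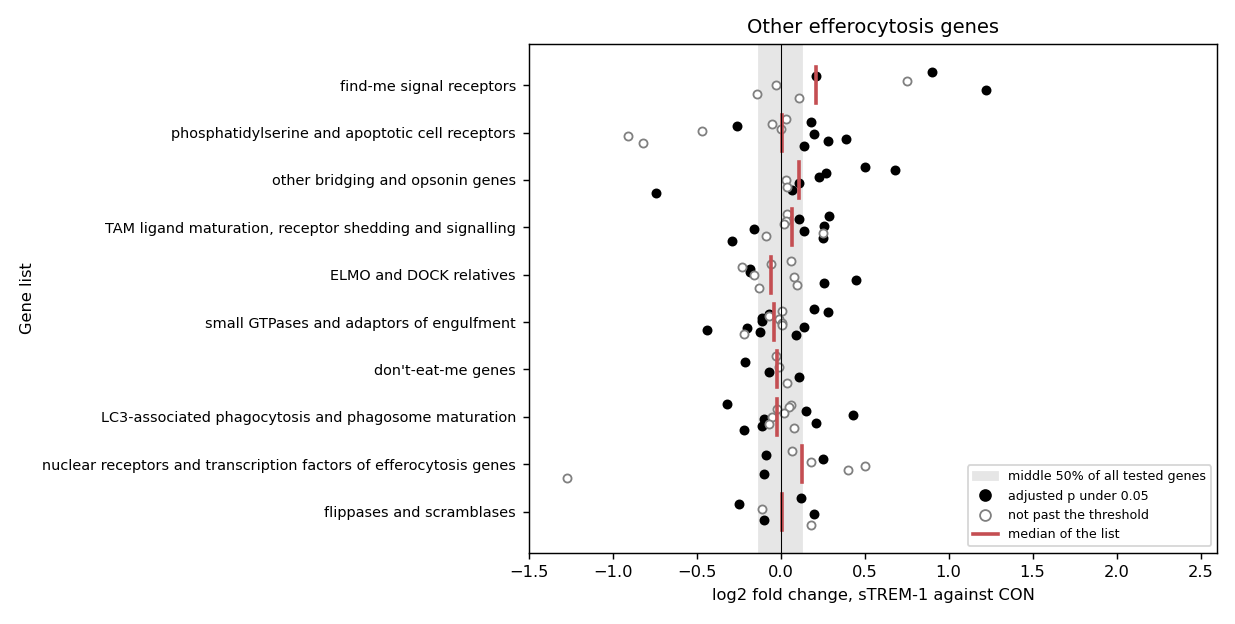
Log2 fold change of each tested gene of 10 efferocytosis lists, sTREM-1 against CON, with the list median in red and the range between the quartiles of all tested genes in grey. Filled points had an adjusted p-value under 0.05. Medians of the lists lie between -0.06 and 0.21.

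Among the other bridging and opsonin genes 6 of 9 tested were higher and 1 was lower. Anxa1, which encodes a phosphatidylserine-binding protein, rose from 73.5 ± 3.28 to 104 ± 2.11 CPM (SD, n = 3 each, edgeR adjusted p = 3.53e-12), and C1qb, a chain of complement C1q, had a log2 fold change of 0.27. Thbs1, which encodes thrombospondin-1, fell from 9.39 ± 0.680 to 5.62 ± 0.894 CPM (SD, n = 3 each, edgeR adjusted p = 8.11e-06). Of 12 tested receptors for phosphatidylserine or dying cells 5 were higher and 1 was lower. Lrp1 rose with a log2 fold change of 0.20, Scarb1 with 0.39 and Cd300lf with 0.18, and Havcr2, which encodes TIM-3, had a log2 fold change of -0.26. All 3 of the called receptors for find-me signals were higher, of 7 tested, and 2 of these, P2ry6 and Cx3cr1, had a mean below 2 CPM in both groups.

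In the list that touches the TAM receptors and their ligands most directly, 5 of 12 genes were higher and 2 were lower. Adam17, a protease known to shed Mertk from the surface, rose by 0.29 on the log2 scale, with 239 ± 3.85 CPM in the CON group and 291 ± 2.74 CPM after sTREM-1 (SD, n = 3 each, edgeR adjusted p = 1.76e-10). Grb2, an adaptor of receptor tyrosine kinases, had a log2 fold change of 0.26. Vkorc1l1, a vitamin K cycle enzyme, and Pik3r1, a PI3K regulatory subunit, had log2 fold changes of -0.29 and -0.16. Vkorc1, the relative of Vkorc1l1, went the other way, with a log2 fold change of 0.25 (edgeR adjusted p = 0.0117). Ggcx, the carboxylase that uses vitamin K to mature Gas6 and protein S, had 0.277 ± 0.123 CPM in the CON group and 0.281 ± 0.142 CPM after sTREM-1 (SD, n = 3 each).

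Of 11 tested ELMO and DOCK relatives 2 were higher, 2 were lower and 7 did not pass, so that 36.4% were called, near the 30.5% of all tested genes. Dock8 rose by 0.45 on the log2 scale, with 88.8 ± 1.86 CPM in the CON group and 121 ± 5.97 CPM after sTREM-1 (SD, n = 3 each, edgeR adjusted p = 2.41e-11), and Dock9 had a log2 fold change of 0.26, while Dock4 and Dock5, the latter of the same subfamily as Dock1 and Dock2, each had -0.18. Among the small GTPases and adaptors of engulfment 4 of 16 were higher and 6 were lower. Trio, a Rac exchange factor, fell from 168 ± 5.63 to 124 ± 2.05 CPM (SD, n = 3 each, edgeR adjusted p = 1.66e-12), Rac1 had a log2 fold change of -0.11, and Rhog, the GTPase upstream of ELMO, had 0.14.

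The remaining lists were mixed. Of 6 tested don't-eat-me genes 1 was higher and 2 were lower, the largest being the inhibitory receptor gene Lilrb4a with a log2 fold change of -0.21. Of 15 genes of LC3-associated phagocytosis and phagosome maturation 3 were higher and 5 were lower. Cybb, which encodes a chain of the phagocyte NADPH oxidase, rose from 267 ± 6.44 to 361 ± 0.88 CPM (SD, n = 3 each, edgeR adjusted p = 2.10e-14), and the lower genes included Atg12 and Uvrag with log2 fold changes of -0.32 and -0.22. Of 8 nuclear receptor and transcription factor genes 1 was higher, Nr1h2, which encodes LXRβ, with a log2 fold change of 0.25, and 2 were lower, among them Rxra with -0.10. Of 6 flippase and scramblase genes 2 were higher and 2 were lower, with Plscr1 at 0.20 and Atp11a at -0.25 on the log2 scale.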

How the data were processed

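RNA of 3 CON and 3 sTREM-1 libraries of BV2 cells was sequenced. The methods name FastQC for read quality, RSEM for quantification and edgeR for differential expression. The submitters' processing notes list HISAT2 2.0.4 and the human builds hg19 and GRCh38, without a role, although 90.0% of the 46095 symbols matched mouse RefSeq genes of GRCm38.p6. The build, annotation and strand used for counting are not given in the sources used here, so reads of overlapping or similar genes may have been split. The deposited values are raw, whole-number counts for each symbol.

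Groups and replicate numbers came from the labels. In edgeR 4.0.16 (R 4.3.3), genes of low count were removed by filterByExpr with a minimum count of 10 and libraries were scaled by TMM. The quasi-likelihood test was run without covariates. This procedure was also run on simulated data in which the changed genes differed 1.5-fold. That simulation does not test calls of smaller changes, such as those of the members. The F statistic and fold change gave the standard errors. Alternatives covered RLE scaling, omission of the filter, at least 10 counts in every library, edgeR's exact test, DESeq2 1.42.0, the replicate number as a block, each library left out, other thresholds and other transcript lengths. A loess correction for GC content and length (span 0.3, with values for 90.7% of tested genes) was added after the data were seen. Coordinates and lengths come from GENCODE M21 (GRCm38) and sequences from RefSeq (GRCm38.p6), which held a start for all 10 members.

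All 10 members are named. Of each other list, at most 3 genes per direction of smallest p were eligible, with an adjusted p under 0.05 and groups that do not overlap. Some listed genes are not reported by name here. Itgav, Ggcx and Vkorc1 were named after their values were seen. The members and lists were chosen with earlier results of these data known.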

Additional observations from a re-analysis of the deposited data

How the results depend on the processing

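Mfge8, Dock1 and Elmo1 kept their direction and an adjusted p-value under 0.05 in all 13 refits, and no member changed direction in any of 104 refitted values. Members called numbered 3, and 3 to 4 with single libraries left out, where 25% to 26.8% of all tested genes were called; they numbered 5 at an unadjusted p under 0.05, as did 38.7% of all tested genes, and 0 when a 1.5-fold change was also required, which left 301 of 4312 genes and 4 of the 55 other efferocytosis genes. With the GC and length correction, chosen after seeing the data, 4 members and 33.1% of 12813 genes were called. A replicate block in the fit gave 4613 genes, 3 members and 60 other efferocytosis genes called, and no call of a member changed. Deviations of same-numbered libraries correlated at -0.018, -0.033 and -0.014. Whether same-numbered libraries share a batch cannot be told from these values. With the median transcript length the difference in share was 1.88 percentage points for Dock1, against 1.54, and -0.897 points for Tyro3, against -0.207, from the lengths alone. Few counts limit the precision for Axl, Tyro3 and Gas6.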
